A study of Mus musculus with 214 samples.

Results

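Bile acid synthesis and transport in the liver were followed through 10 genes, chosen by symbol for their role in making, conjugating, moving or regulating bile acids. All 10 were present in both deposited tables, which held 18647 genes for wild-type (WT) livers and 19540 for Mgmt-/- livers. The mice carried the RaDR and GPT transgenic alleles on both chromosomes (RaDR+/+; GPT+/+) on a C57BL/6 background. WT mice had no other labelled allele, and Mgmt-/- mice also lacked Mgmt, the gene for the enzyme that removes methyl groups from the O6 position of guanine. Mice received N-nitrosodimethylamine (NDMA), a DNA-methylating carcinogen, by intraperitoneal injection on postnatal day 8 (3.5 mg/kg) and again on postnatal day 15 (7 mg/kg), or saline at the same ages. Livers were collected 1, 2 and 5 days (postnatal days 16, 17 and 20), 10 weeks and 10 months after the second dose, and RNA was measured by 3′ digital gene expression sequencing. These collections are named Day1, Day2, Day5, Week10 and Month10. Both sexes were included at each time.

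The WT groups held 26 NDMA and 21 saline livers at Day1, 8 and 8 at Day2, 8 and 7 at Day5, 8 and 8 at Week10, and 13 and 10 at Month10. The Mgmt-/- groups held 12 and 12, 8 and 7, 8 and 6, 8 and 8, and 13 and 12 at the same times, after 2 saline libraries were left out. Values are normalized counts, which are read counts divided by a size factor for each library, set by the authors separately for each genotype, so levels in WT and Mgmt-/- livers are not on 1 scale. Recovered library totals ran from 150038 to 4791649 reads in WT (median 1710016) and from 713584 to 7740710 in Mgmt-/- (median 2347670). Mgmt itself was measured at 13 to 130 normalized counts in WT libraries (median 45.8) and at 0 to 9.67 in Mgmt-/- libraries (median 1.09), each on its own scale.

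Some libraries stood apart from their labels. Among the Mgmt-/- saline livers of Day5, libraries D389011 and D389017 held 6147 and 7562 normalized counts of Kap, a kidney gene that reached at most 13.9 in the other 94 Mgmt-/- libraries. In these 2 libraries Slco1b2 was at 15.1 and 5.45 normalized counts, against 393 to 6138 elsewhere, and they were left out of every value below unless stated. In WT, 2 NDMA libraries of Day1 (D209072 and D209077) had sex-linked genes of the other sex than labelled, with Cdkn1a at 30.3 and 16.3 normalized counts. Cdkn1a, a cell cycle inhibitor induced by p53, exceeded 100 normalized counts in 3 WT saline libraries (D209074 at Day1, D215004 at Day2 and D215012 at Day5, with 359, 212 and 109). These 5 libraries were kept as labelled, and the counts without them are given beside the WT results. Treatment was set by whole litter, and the labels give no litters, so litter and treatment cannot be told apart, and tumour content of the Month10 pieces was not in the labels.

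Bile acids are made from cholesterol in hepatocytes by a classic route that begins with Cyp7a1 and an alternative route that begins with Cyp27a1, then joined to taurine or glycine and pumped into bile. They return from the intestine in portal blood and are taken up again by transporters on the sinusoidal face of the hepatocyte. The nuclear receptor FXR (Nr1h4) senses them and raises Nr0b2 (SHP) and Abcb11, and SHP in turn represses Cyp7a1.

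Several genes of this set were lower after NDMA in both genotypes during the first days and in Mgmt-/- livers also at Week10, with fewer at Month10. In Mgmt-/- livers 7 of 10 genes were lower at Day1, 6 each at Day2, Day5 and Week10, and 3 at Month10, by limma with an adjusted p (Benjamini-Hochberg, over all genes tested) under 0.05 and a log2 fold change beyond 0.58. The shares of all tested genes called lower were 8.64%, 7.5%, 6.71%, 3.88% and 2.99%. In WT livers 5 of 9 tested genes were lower at Day1, 6 of 9 at Day2 and 4 of 10 at Day5, where 4.19%, 2.91% and 1.39% of all tested genes were lower. Scaled to the same total, 3 were lower at Mgmt-/- Day5 and 3 at WT Day2, beside 4.5% and 2.12% of all tested genes. In Mgmt-/- males alone 2 were lower at Week10 and 1 at Month10, beside 0.341% and 1.58%. Leaving out any 1 of 8 livers (saline D202002, D202003, D215001, D215002 or D215003, or NDMA D202008, D215007 or D215008) took the WT Day2 count from 6 to 3. No share of all tested genes is given for those fits, so the move is not read as particular to the set. Without the 1 library under 300000 reads at each time (NDMA D215006 and D215014), 6 and 5 of the set were lower at WT Day2 and Day5, beside 4.79% and 3.7% of all tested genes. No gene of the set was called higher at any time, although Baat was at WT Day1 and Mgmt-/- Day2 when libraries were scaled to the same total. In WT livers no gene of the set was called at Week10 or Month10, where 0% and 0% of all tested genes were called lower. At an unadjusted p under 0.05 there were 0 of the 10 genes at Week10 and 1 at Month10 (Cyp27a1, log2 fold change -0.31), and edgeR and DESeq2 called 0 of them at both times, where edgeR called 0 and 0 of all genes and DESeq2 4 and 1. Over all tested genes, 350 and 757 had an unadjusted p under 0.05 at these times.

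The median log2 fold change of the 10 genes in Mgmt-/- livers was -1.10 at Day1, -0.97 at Day2, -0.63 at Day5, -0.75 at Week10 and -0.38 at Month10, while that of all tested genes stayed between -0.01 and 0.04. In WT livers the median of the tested members was -0.62, -0.69 and -0.71 at Day1, Day2 and Day5, and 0.00 and -0.09 later, against -0.03, -0.08, -0.07, -0.03 and -0.06 for all tested genes. Over the 10 comparisons Slco1b2 was lower in 8, Cyp27a1, Slc10a1 and Abcb11 in 7 each, Slc27a5 and Nr0b2 in 5 each, Cyp7a1 in 2, Cyp8b1 in 1, and Baat in none. Cyp7b1 was lower in 1 of the 8 in which it was tested. Without the 5 doubted WT libraries the WT counts were again 5, 6 and 4, while the shares of all tested genes called lower were 5.33%, 4.43% and 2.66%. In bulk tissue, fewer hepatocytes and less of a transcript per hepatocyte cannot be told apart.

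**Figure D1:**
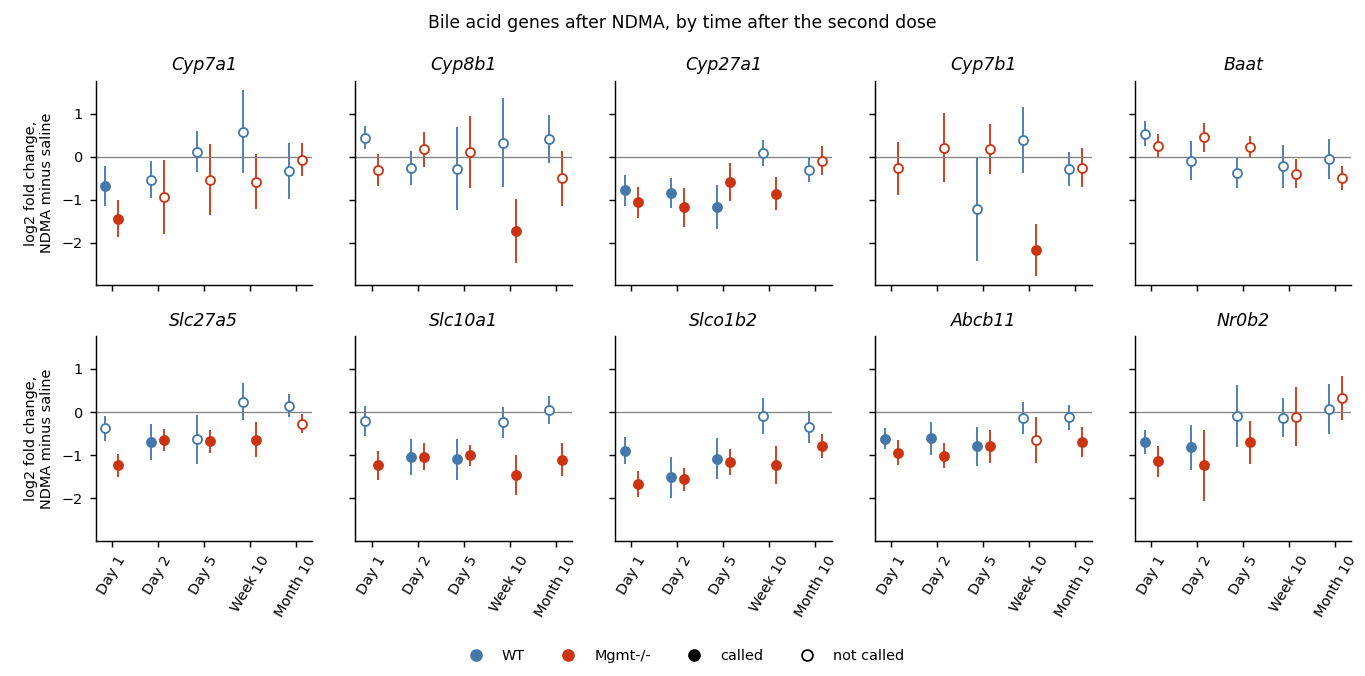
Log2 fold change of NDMA against saline (vertical axis) for each of the 10 genes at the 5 collection times (horizontal axis), WT in blue and Mgmt-/- in red, with 95% confidence intervals. Filled points passed the threshold. Slco1b2 and Slc10a1 passed it at all 5 times in Mgmt-/- livers, while no WT point passed it at Week10 or Month10.

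Markers of other cell types and of the zone around the central vein moved in the same livers. The summed level of 8 pericentral hepatocyte markers, of which Cyp2e1 was the most abundant except in the Week10 NDMA group (Cyp1a2), was 6899 normalized counts in Mgmt-/- saline livers and 779 in NDMA livers at Day1, 9662 and 4456 at Week10, and 9105 and 6317 at Month10. All 7 pericentral markers tested were lower at Day1, 4 of 6 were lower and 1 higher at Week10, and 3 of 8 were lower at Month10. In WT livers 6 of 6, 6 of 6 and 5 of 6 were lower at Day1, Day2 and Day5, and none later. The 5 general hepatocyte markers, led by Alb (at Week10 by Ttr), summed to 282381 and 178445 at Day1, 185895 and 134024 at Week10, and 165755 and 162320 at Month10. At Day2 and Day5 they summed to 360331 and 236161 and to 353044 and 257340. The numbers lower at the 5 times were 3, 3, 1, 1 and 0, and 1 was higher at Month10. In WT livers their sums were 244313 and 212643, 231699 and 165351, and 192748 and 175773 in the first 3 collections, with 0, 1 and 0 lower and none called later. In Mgmt-/- saline and NDMA livers the 8 markers of the zone around the portal tract summed to 7023 and 6580 at Day1, 8885 and 9781 at Day2, 11001 and 12484 at Day5, 9448 and 10028 at Week10, and 7401 and 9237 at Month10, led by Ass1 or, in the Week10 groups and the Month10 NDMA group, Cyp2f2. The numbers higher at the 5 times were 3, 2, 2, 2 and 3, and 1 was lower, at Day1. In WT livers 4 were higher at Day1 and 1 was lower at Day2, with none called later, and the sums were 4353 and 5671, 7357 and 7138, and 7162 and 6663 in the first 3 collections. No pericentral or general hepatocyte marker was at 0 in every library. At Day2 and Day5 the pericentral markers summed to 10427 and 1241 and to 11825 and 2926 in saline and NDMA livers, with 6 of 6 tested lower at both times. Macrophage markers, led by Lyz2, were higher in NDMA livers for 3 of 8 genes at Day1 and lower for 2, higher for 6 of 8 at both Day2 and Day5, and higher for 5 of 8 at Week10 and 3 of 8 at Month10. Their sums were 1053 in saline and 2696 in NDMA livers at Day2 and 1120 and 2364 at Day5. Of 6 T cell markers 2 could be tested at Day1, Day2 and Day5, of which 1, 2 and 2 were higher, and the 4 measured summed to 19.5 and 96.8 at Day2 and to 16.5 and 108.0 at Day5. In WT livers 5, 2 and 2 of 8 macrophage markers were higher at Day1, Day2 and Day5, and 2 were lower at Day2, with sums of 1031 and 1404, 1166 and 1340, and 865 and 1484 in saline and NDMA livers. The T cell markers measured summed to 19.1 and 29.9, 20.2 and 41.0, and 12.9 and 45.1 there, with 1, 1 and 2 of the 2 tested higher, and no macrophage or T cell marker was called in WT at Week10 or Month10. Beside these counts, 9.06%, 12.4%, 11.1%, 7.27% and 4.75% of all tested genes were higher in Mgmt-/- livers at the 5 times. The shares lower there were 8.64%, 7.5%, 6.71%, 3.88% and 2.99%. In WT livers 5.01%, 3.33% and 2.22% of all tested genes were higher at Day1, Day2 and Day5, and 4.19%, 2.91% and 1.39% lower. Of the bile duct markers only 3 of 8 could be tested, and the most abundant, Spp1, was lower in Mgmt-/- NDMA livers at Day1 and Day5 and higher at Week10 and Month10. It stood at 214 normalized counts in saline and 132 in NDMA livers at Day1, 302 and 114 at Day5 (means), and at Day2 (272 and 216) it was not called. At Week10 it ran from 48.1 to 621 in saline (median 75.9) and from 401 to 1821 in NDMA livers (median 805), and at Month10 from 27.7 to 115 (median 65.8) and from 147 to 3669 (median 336), without overlap at Month10. In WT livers Spp1 was called higher at Day1 (means 187 and 305, log2 change 0.65, adjusted p = 0.000239 by limma) and at no other time. Spp1 made up most of the sum of the 8 bile duct markers. That sum was 241 and 158 in Mgmt-/- livers at Day1, 319 and 131 at Day5, and 205 and 325 in WT at Day1. The calls of the other bile duct markers tested are not given here. These values therefore describe Spp1 and are not read as the number of bile duct cells. The part of the cell types named in this paragraph in the changes below was not tested.

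The synthesis enzymes differed in when they were lower. Cyp7a1, the rate-limiting enzyme of the classic route (GRCm38 4:6265612-6275633, minus strand), ran from 158 to 489 normalized counts in Mgmt-/- saline livers at Day1 (median 263) and from 44.8 to 239 in NDMA livers (median 89.8). In 10 of 12 NDMA livers it was below the lowest saline value. It fell by 1.44 ± 0.21 on the log2 scale (SE), 2.71-fold lower, adjusted p = 4.75e-06 by limma. At Day2 its values were 154 to 1130.2 in saline (median 390.4) and 119.7 to 328 in NDMA livers (median 189), and the log2 change of -0.93 missed the threshold (adjusted p = 0.11 by limma; DESeq2 called it). At Day5, Week10 and Month10 its log2 changes were -0.53, -0.58 and -0.07, none past the threshold. In WT livers at Day1 it ran from 59.2 to 341 in saline (median 157) and from 22.4 to 274 in NDMA livers (median 109), and fell by 0.68 ± 0.23 (adjusted p = 0.0284 by limma), a call that edgeR and DESeq2 did not make.

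Cyp27a1, the sterol 27-hydroxylase of the alternative route (1:74713574-74737892, plus strand), was lower in both genotypes. In Mgmt-/- livers at Day1 its saline range was 22.6 to 138 normalized counts (median 73.6) and its NDMA range 13.9 to 46.0 (median 38.6). It fell by 1.05 at Day1 (adjusted p = 1.57e-05) and 1.17 at Day2 (adjusted p = 0.000191) on the log2 scale by limma, with 7 of 8 NDMA livers below every saline liver at Day2. At Day5 the log2 change of -0.58 lay at the edge of the threshold, and leaving out any 1 of 10 of the 14 livers ended the call. At Week10 its values were 294 to 387 in saline (median 329.9) and 114 to 285 in NDMA livers (median 177), without overlap, and it fell by 0.86 ± 0.19 (1.81-fold lower, adjusted p = 0.00278 by limma). By Month10 the ranges lay over each other, 242 to 725 and 275 to 609 (log2 change -0.09). In WT livers it fell by 0.78, 0.84 and 1.17 at Day1, Day2 and Day5 (adjusted p = 0.00105, 0.00342 and 0.0108 by limma).

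Cyp7b1, the oxysterol 7α-hydroxylase of the alternative route (3:18071950-18243338, minus strand), and Cyp8b1, the sterol 12α-hydroxylase that sets the share of cholic acid (9:121914356-121916305, minus strand), were called lower at Week10 in Mgmt-/- livers and, over both sexes, at no other time. Cyp7b1 at Week10 was measured in females at 55.1, 101, 106 and 363 normalized counts after saline and at 17.7, 21.2, 30.7 and 31.7 after NDMA. In males it was at 345, 415, 616 and 1149 after saline and at 97.6, 132, 143 and 169 after NDMA. Within each sex the treatments did not overlap, and across sexes they did, the NDMA males lying among the saline females. Cyp7b1 fell by 2.17 ± 0.29 on the log2 scale with sex in the model (95% confidence interval -2.77 to -1.56), 4.49-fold lower, adjusted p = 1.48e-05 by limma. It remained past the threshold in each sex alone, and missed it when sex was left out of the model. Before Week10 it was counted at very low levels, 3.60 to 18.6 normalized counts in Mgmt-/- saline livers at Day1, and in WT its mean was below the minimum of 5 for testing at Day1 and Day2.

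Cyp8b1 at Week10 in Mgmt-/- females was at 30.8, 93.5, 118 and 204 normalized counts after saline and at 10.4, 11.9, 23.8 and 59.1 after NDMA. In males it was at 171, 192, 197 and 391 after saline and at 55.5, 76.1, 104 and 127 after NDMA. The male treatments did not overlap, and 1 saline female lay among the NDMA females. Cyp8b1 fell by 1.73 ± 0.36 (95% confidence interval -2.47 to -0.99), 3.32-fold lower, adjusted p = 0.00177 by limma, and missed the threshold in either sex alone. At Day1 it was called in Mgmt-/- females alone (log2 change -0.83), and in WT its Day1 log2 change of 0.44 stayed short of the fold threshold (adjusted p = 0.0141 by limma). At Month10 it averaged 441 ± 116 in saline and 181 ± 97.9 in NDMA males (log2 change -1.42 in males alone, called), and 88 ± 40.8 and 111 ± 95.1 in females (0.22, SD throughout). The sex-by-treatment term for Cyp8b1 at Month10 was 1.64 (adjusted p = 0.11 by limma), so the sexes were not shown to differ. No gene of the set passed that test at Week10 or Month10, where 0.114% and 0.338% of all tested genes did. At an unadjusted p under 0.05 there were 0 genes of the set at Week10 and 2 at Month10 (Cyp27a1 and Cyp8b1), beside 4.21% and 19.6% of all tested genes, so the count at Month10 was near that of all genes.

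**Figure D2:**
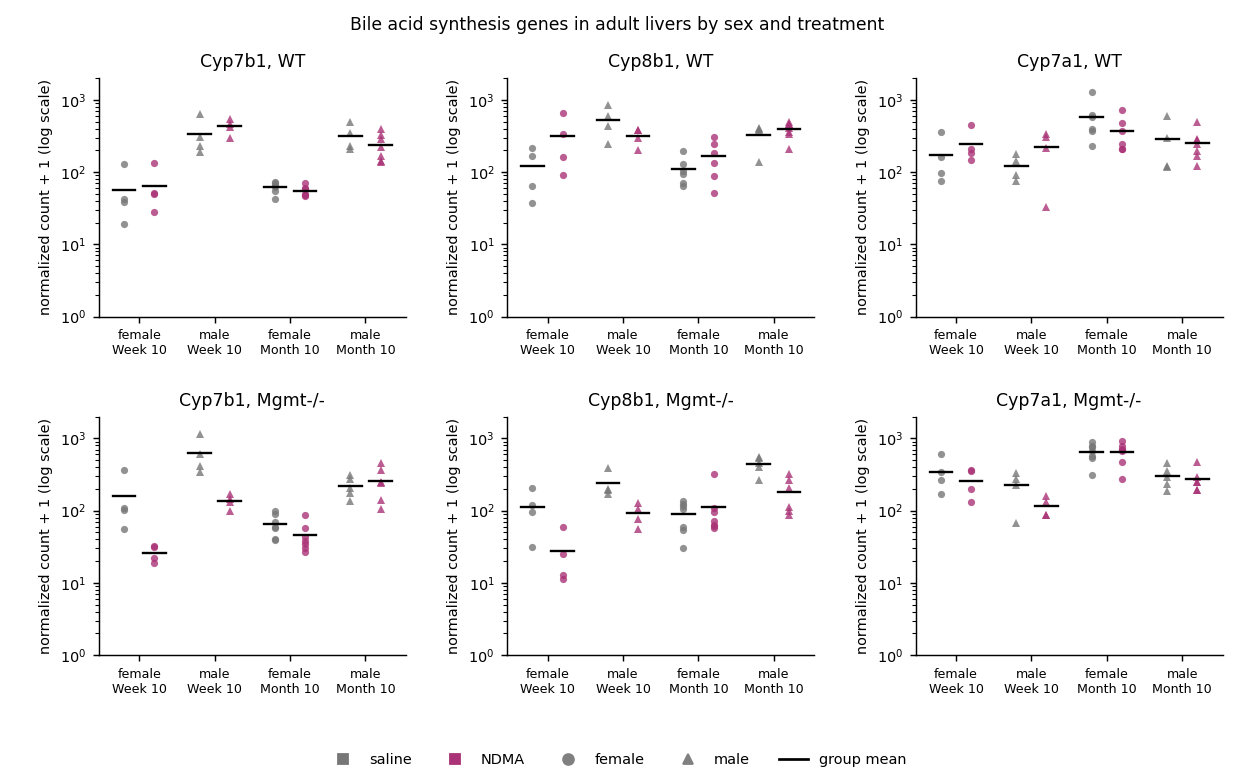
Normalized count plus 1 on a log axis (vertical) of Cyp7b1, Cyp8b1 and Cyp7a1 in each WT (upper row) and Mgmt-/- (lower row) liver at Week10 and Month10, split by sex (circles female, triangles male) and treatment (grey saline, magenta NDMA) along the horizontal axis, with lines at the means and each genotype on its own scale. In Mgmt-/- livers at Week10 the 4 NDMA females lie at 17.7 to 31.7 for Cyp7b1, below all saline females, and the 4 NDMA males at 97.6 to 169, below all saline males.

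The conjugation genes differed from each other. Slc27a5, which activates bile acids to their CoA esters (7:12988346-12998192, minus strand), ran from 620.0 to 1827 normalized counts in Mgmt-/- saline livers at Day1 (median 1345) and from 230.0 to 793 in NDMA livers (median 542), with all 12 NDMA livers below the saline median. It fell by 1.24 ± 0.13 on the log2 scale at Day1, 2.36-fold lower, adjusted p = 1.8e-09 by limma. It fell by 0.64, 0.68 and 0.64 at Day2, Day5 and Week10 (adjusted p = 0.000263, 0.000455 and 0.031 by limma), calls that ended when every library was scaled to the same total, and it stood at -0.27 at Month10. The Week10 call also ended when any 1 of 8 of the 16 livers was left out. In WT livers it was lower at Day2 alone (log2 change -0.69, adjusted p = 0.041 by limma), and leaving out any 1 of 12 of the 16 livers ended that call. Baat, the amino acid N-acyltransferase that joins the bile acid to taurine or glycine (4:49489422-49506557, minus strand), was not called in any comparison. Its Mgmt-/- values at Day1 were 94.4 to 251 normalized counts in saline (median 170.2) and 128 to 286 in NDMA livers (median 201.1). Its log2 change was 0.54 in WT at Day1 (adjusted p = 0.00373), 0.45 in Mgmt-/- at Day2 (adjusted p = 0.0435) and -0.50 in Mgmt-/- at Month10 (adjusted p = 0.018), all by limma and all short of the fold threshold. Scaled to the same total, Baat was called higher at WT Day1 (0.58) and Mgmt-/- Day2 (0.62).

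The uptake transporters were lower at every time in Mgmt-/- livers with both sexes in the model. Slco1b2, an organic anion transporter that takes up unconjugated bile acids (6:141629518-141686646, plus strand), ran from 1256 to 3438 normalized counts in saline livers at Day1 (median 2524) and from 393 to 1540.1 in NDMA livers (median 759). At Day2 the ranges were 3099 to 4105 (median 3629) and 809 to 1819 (median 1157), and at Day5 3211 to 4096 (median 3649.8) and 879.7 to 2048 (median 1703), with no overlap at either time. At Week10 they were 2117 to 6138 (median 2569) and 969 to 1858 (median 1158), again without overlap. At Month10 they were 2521 to 4394 (median 3206) and 1158 to 2842 (median 1979.7), with 11 of 13 NDMA livers below the lowest saline liver. The expression of Slco1b2 was thus 3.18-fold lower at Day1, 2.94-fold at Day2, 2.24-fold at Day5, 2.35-fold at Week10 and 1.73-fold at Month10 (adjusted p = 3e-11, 1.17e-09, 1.71e-06, 0.000234 and 0.0002 by limma). In WT livers Slco1b2 ran from 1136 to 3435 in saline at Day2 (median 2134) and from 431 to 1233 in NDMA livers (median 789.7). It was 1.86-fold, 2.86-fold and 2.11-fold lower at Day1, Day2 and Day5 (adjusted p = 2.23e-05, 0.00045 and 0.0115 by limma), and its log2 changes of -0.08 at Week10 and -0.35 at Month10 missed the threshold.

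Slc10a1, the sodium-dependent transporter NTCP that takes up conjugated bile acids (12:80953183-80968705, minus strand), was also called lower at all 5 times in Mgmt-/- livers. Its saline range at Day1 was 322 to 2011 normalized counts (median 1493) and its NDMA range 164 to 844 (median 549). At Day2 the ranges were 1700.2 to 3249 and 757 to 1424, and at Day5 2200.2 to 2937 and 994 to 1545, with no overlap at either time. At Week10 they were 456 to 1465 (median 964) and 235 to 516 (median 340.2), with 6 of 8 NDMA livers below the lowest saline liver, and at Month10 664 to 1863 (median 992) and 282 to 898 (median 468), with 10 of 13 below. Slc10a1 fell by 1.24 ± 0.17, 1.04 ± 0.15, 1.01 ± 0.12, 1.45 ± 0.23 and 1.10 ± 0.19 on the log2 scale (SE) at the 5 times (adjusted p = 4.85e-07, 1.98e-05, 5.54e-07, 8e-05 and 0.000269 by limma). In WT livers the log2 change was -0.21 at Day1, not past the threshold (adjusted p = 0.418), and Slc10a1 fell by 1.04 at Day2 and 1.10 at Day5 (adjusted p = 0.00312 and 0.0115 by limma). At Week10 and Month10 its WT log2 changes were -0.24 and 0.05. In Mgmt-/- males alone at Month10 the log2 changes of Slc10a1 (-0.74) and Slco1b2 (-0.70) missed the threshold (adjusted p = 0.103 and 0.0631 by limma), as did Slco1b2 in males at Week10 (-1.36, adjusted p = 0.0986), where 1.58% and 0.341% of all tested genes were called lower in males at Month10 and Week10.

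**Figure D3:**
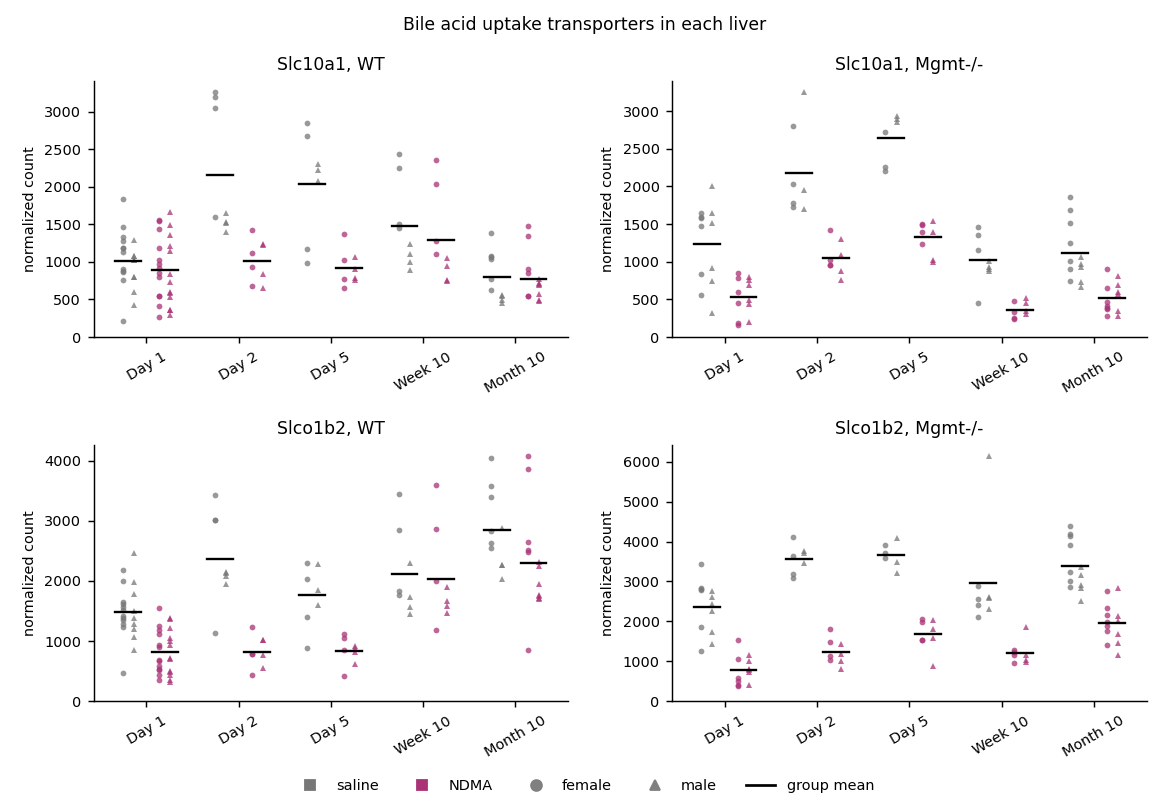
Normalized counts (vertical axis) of the uptake transporters Slc10a1 and Slco1b2 in each liver, by treatment and collection time, each genotype on its own scale, with circles for females, triangles for males and lines at group means. In Mgmt-/- livers the treatments do not overlap for either gene at Day2 and Day5, nor for Slco1b2 at Week10, where 1 saline liver stands at 6138.

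Abcb11, the bile salt export pump of the canalicular membrane (2:69238282-69342616, minus strand), ran from 133 to 380.0 normalized counts in Mgmt-/- saline livers at Day1 (median 207) and from 72.4 to 181 in NDMA livers (median 107). In 11 of 12 NDMA livers it was below the lowest saline liver, and at Day2 the ranges of 153 to 315 and 76.1 to 124 did not overlap. Abcb11 fell by 0.94, 1.01, 0.80 and 0.69 on the log2 scale at Day1, Day2, Day5 and Month10 (adjusted p = 3.3e-06, 3.63e-06, 0.00237 and 0.00815 by limma), and the Month10 call was lost in either sex alone. At Week10 its values were 245 to 1394 in saline (median 374) and 205 to 320.4 in NDMA livers (median 284), and the log2 change of -0.65 missed the threshold by limma (adjusted p = 0.11) and passed it by edgeR (adjusted p = 0.0337) and DESeq2 (adjusted p = 0.0270). In WT livers it ran from 66.0 to 307 in saline at Day1 (median 166) and from 54.5 to 193 in NDMA livers (median 105), and fell by 0.62 (adjusted p = 0.000104 by limma). The WT log2 changes of -0.60 at Day2 and -0.80 at Day5 (adjusted p = 0.0471 and 0.0426 by limma) each ended when any 1 of 13 livers was left out.

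Nr0b2, the repressor SHP (4:133553376-133556536, plus strand), ran from 126 to 547 normalized counts in Mgmt-/- saline livers at Day1 (median 281) and from 43.7 to 224 in NDMA livers (median 107), with 8 of 12 NDMA livers below the lowest saline liver. It fell by 1.15 ± 0.17, 1.24 ± 0.38 and 0.70 ± 0.24 on the log2 scale (SE) at Day1, Day2 and Day5 (adjusted p = 3.6e-06, 0.0278 and 0.0427 by limma), and the Day2 call ended without saline liver D389029 or D389041 and the Day5 call when any 1 of 8 of the 14 livers was left out. At Week10 and Month10 its log2 changes were -0.11 and 0.32, neither past the threshold. In WT livers it fell by 0.69 at Day1 and 0.82 at Day2 (adjusted p = 0.000127 and 0.0483 by limma), the latter ending when any 1 of 11 of the 16 livers was left out, and stood at -0.10 at Day5.

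Promoter sequence was available for 6 of the 10 genes in the RefSeq table (GRCm38.p6). The 250 bases before the start sites of Abcb11 and Slco1b2 are shown because both hold an inverted repeat of the kind bound by FXR, GGNCANTGNCC. It was found in no other of the 7 promoters searched, those of Nr0b2, Cyp27a1, Cyp8b1 and Slc10a1. Among these, Slc10a1 was lower in as many comparisons as Abcb11 (7 each), and Nr0b2 is itself raised by FXR. Whether FXR had a part in the changes was not tested. The repeat is printed in capitals with the base that follows it, on the strand of the gene.
Abcb11 (chr2:69342617-69342866, minus strand): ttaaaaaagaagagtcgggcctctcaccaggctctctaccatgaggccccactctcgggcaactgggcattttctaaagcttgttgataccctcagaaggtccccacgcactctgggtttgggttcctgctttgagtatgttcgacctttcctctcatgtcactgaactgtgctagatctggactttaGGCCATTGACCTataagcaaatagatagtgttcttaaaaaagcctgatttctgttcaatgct
Slco1b2 (chr6:141629268-141629517, plus strand): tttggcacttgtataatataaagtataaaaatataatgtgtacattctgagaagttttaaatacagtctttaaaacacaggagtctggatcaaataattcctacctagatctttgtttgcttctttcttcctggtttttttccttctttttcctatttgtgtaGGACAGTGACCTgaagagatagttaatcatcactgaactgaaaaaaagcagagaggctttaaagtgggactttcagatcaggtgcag
The repeat lies at positions -62 to -52 from the start in Abcb11 and at -87 to -77 in Slco1b2. Searched on both strands, these letters were found in 189 of 32851 mouse promoters of the same length (0.5753%). The hexamer AGGTCA or its reverse complement TGACCT, which overlaps the repeat in both promoters, was found in 4607 (14.02%), among them 1 of the promoters of Slc10a1, at -87 to -82. The letters were chosen after the sequences had been seen, and a match describes the sequence and is no evidence of binding. For Cyp7a1, Cyp7b1, Baat and Slc27a5 no promoter was used here.

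The treatment effect was compared between genotypes with edgeR on whole reads. At Day1, Day2 and Day5 no gene of the set differed at an adjusted p under 0.05, where 0.00963%, 3.94% and 2.15% of all tested genes did. At an unadjusted p under 0.05 there were 5, 0 and 2 of the 10 genes, beside 9.52%, 17% and 14.7% of all tested genes, and at Day1 these were Cyp7a1, Cyp8b1, Slc10a1, Slc27a5 and Slco1b2. At Week10 the log2 change in Mgmt-/- livers minus that in WT livers was -2.69 for Cyp7b1 (adjusted p = 0.0026), -1.24 for Slc10a1 (adjusted p = 0.005), -1.18 for Slco1b2 (adjusted p = 0.0089) and -0.85 for Cyp27a1 (adjusted p = 0.022), all by edgeR, beside 5.79% of all genes called. With library totals alone as the scaling, Cyp27a1 missed the threshold (-0.66, adjusted p = 0.085 by edgeR). At Month10 it was -1.18 for Slc10a1 (adjusted p = 0.013), beside 1.53% of all genes called. At Day2, Day5 and Week10 no run batch held both genotypes, so batch and genotype cannot be told apart there, though each genotype's own contrast was made within batches.

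The remaining genes of the pathway showed which other steps were lower. Of 12 tested genes for further synthesis steps, 6 were lower in Mgmt-/- livers at Day1, 4 each at Day2, Day5 and Week10, and 3 at Month10, beside 8.64%, 7.5%, 6.71%, 3.88% and 2.99% of all tested genes. In WT livers 3, 7 and 2 were lower at Day1, Day2 and Day5, beside 4.19%, 2.91% and 1.39%, and none later, and none was higher in either genotype. Of the 7 WT calls at Day2, those of Akr1c6 and Cyp2c70 each ended when any 1 of 13 of the 16 livers was left out, and that of Akr1d1 when any 1 of 10 was. The median log2 change of these genes in Mgmt-/- livers was -0.59 at Day1 and -0.41 at Week10. Hsd3b7, the hydroxysteroid dehydrogenase that acts after 7α-hydroxylation, ran from 1147 to 1440 normalized counts in Mgmt-/- saline livers at Day2 and from 292 to 619 in NDMA livers (log2 change -1.60, adjusted p = 2.85e-10 by limma). Akr1d1, the steroid 5β-reductase, averaged 574 ± 197 after saline and 214 ± 98.2 after NDMA at Day1 (SD, n = 12 each; log2 change -1.50, adjusted p = 2.74e-07 by limma). Akr1c6, an aldo-keto reductase, averaged 4352 ± 982 and 1340 ± 789 at Day1 (log2 change -1.84, adjusted p = 2e-09 by limma) and was lower again at Week10 (-0.85, adjusted p = 0.00115). Hsd3b7, Akr1d1 and Akr1c6 were each lower in 6 of the 10 comparisons, Cyp2c70, which makes muricholic acids in the mouse, in 4, and Cyp39a1, an oxysterol 7α-hydroxylase, in 3.

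The other transporters held calls in either direction. Of 9 tested in Mgmt-/- livers at Day1 and at Day2, 3 were lower and 1 higher at each time, of 10 at Day5, 3 were lower and 2 higher, of 11 at Week10, 4 were lower and 1 higher, and of 10 at Month10, 1 was lower and none higher. The shares of all tested genes were 8.64%, 7.5%, 6.71%, 3.88% and 2.99% lower and 9.06%, 12.4%, 11.1%, 7.27% and 4.75% higher, so the counts of 1 higher were near those of all genes. In WT livers 1 of 9 was lower at Day1 and at Day5, beside 4.19% and 1.39%, and none was called at the other times. Abcb4, the canalicular phosphatidylcholine floppase, was higher in Mgmt-/- livers at Day1, Day2 and Day5 (log2 changes 0.73, 0.72 and 0.94). At Day5 it ran from 86.6 to 117 normalized counts in saline and from 134 to 260 in NDMA livers, without overlap (adjusted p = 1.78e-05 by limma). Slco1a4, a sinusoidal organic anion transporter, was lower in 7 comparisons, all 5 in Mgmt-/- livers among them, with 180 ± 95.4 and 64.1 ± 27.1 at Day1 (log2 change -1.43, adjusted p = 1.55e-07 by limma). Slco2b1, of the same family, was lower in 3 Mgmt-/- comparisons, and at Day5 its ranges of 74.0 to 147 and 33.2 to 58.9 did not overlap (log2 change -1.12, adjusted p = 1.74e-05 by limma). Atp8b1, the canalicular flippase, was lower at Day1, Day2 and Day5 in Mgmt-/- livers (log2 changes -0.69, -0.61 and -0.68). The Mgmt-/- Day2 calls of Atp8b1 and Slco1a4 each ended when any 1 of 5 of the 15 livers was left out, the Day2 call of Slco2b1 ended without NDMA liver D389077, and the Day5 call of Atp8b1 without saline liver D389036.

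A pair of further transporters were chosen after their values had been seen. Slco1a1, a sinusoidal organic anion transporter of the adult liver, averaged 219 ± 190 in saline and 5.51 ± 4.38 in NDMA females and 546 ± 169 and 52.1 ± 23.6 in males (SD, n = 4 each) in Mgmt-/- livers at Week10. Its log2 change was -4.15 (adjusted p = 4.3e-07 by limma), and it was -0.01 at Month10. Slc51b, a subunit of the basolateral bile acid exporter, rose from 6.70 ± 4.29 to 25.2 ± 8.96 normalized counts (SD, n = 8 each) at Week10, with all NDMA livers above the highest saline liver at 12.2 (log2 change 1.91, adjusted p = 0.00038 by limma), and by 0.98 at Day5 (adjusted p = 0.000372).

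Of the regulators, 12 tested, 3 were lower in Mgmt-/- livers at Day1, 2 at Day2, none at Day5 and 3 at Week10, and 1 of 13 was lower at Month10, beside 8.64%, 7.5%, 6.71%, 3.88% and 2.99% of all tested genes. In WT 1 of 12 was lower at Day2, beside 2.91%. The counts of none and 1 were near those of all genes. Nr1i3, the nuclear receptor CAR, averaged 177 ± 78.7 in saline and 72.5 ± 21.9 in NDMA livers (SD, n = 8 each) at Week10 in Mgmt-/- mice (log2 change -1.20, adjusted p = 4.23e-05 by limma) and was lower in 4 Mgmt-/- comparisons. Nr1h4, the gene for FXR, had Mgmt-/- log2 changes of -0.11, 0.00 and -0.02 in the first 3 collections and was lower at Week10 (-0.68, adjusted p = 0.0178 by limma). It was named after its values had been seen.

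**Figure D4:**
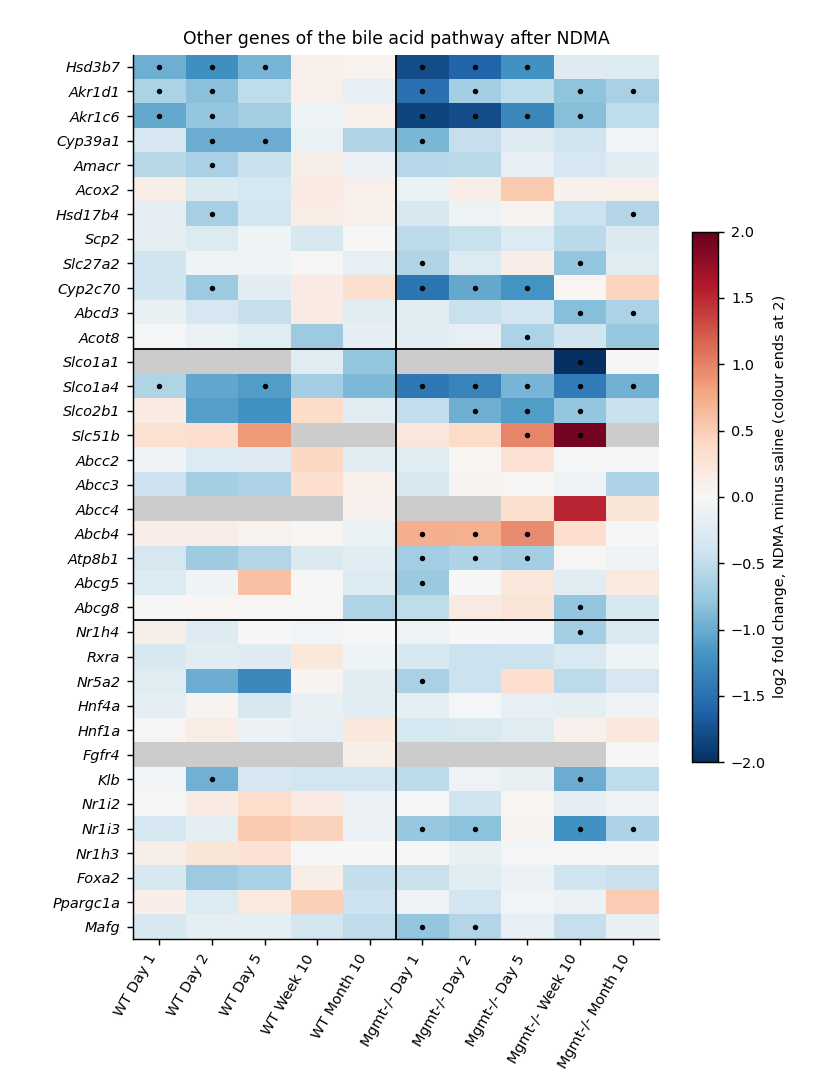
Log2 fold change of NDMA against saline (colour, ending at 2 in each direction) for 36 further genes of the pathway (rows) in the 10 comparisons (columns), with a dot where the threshold was passed and grey where a gene was not tested. Dots lie in all Mgmt-/- columns and in the WT columns of Day1, Day2 and Day5, and none in the WT columns of Week10 and Month10.

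Saline livers show the course of these genes with age. In both genotypes the adult Week10 livers had far more Cyp7b1 than the Day5 livers, with a mean of 12.4 ± 5.10 at Day5 and 394 ± 359.9 at Week10 in Mgmt-/- (SD, n = 6 and 8) and of 9.03 ± 3.64 and 197 ± 203 in WT (n = 7 and 8). The log2 changes were 3.88 and 3.50 (adjusted p = 0.00019 and 4e-07 by limma). Cyp27a1 rose with it, by 1.33 in Mgmt-/- and 0.78 in WT (adjusted p = 0.007 and 0.0096 by limma). These were the 2 genes of the set called between Day5 and Week10 in each genotype, where 4.98% of all tested genes in Mgmt-/- and 11.8% in WT were called in either direction. The WT change of Cyp27a1 missed the threshold without batch in the model and when libraries were scaled to the same total. Under that scaling 1 of the set was higher and 2 were lower in WT, beside 2.55% and 14.7% of all tested genes. In Mgmt-/- these ages came from different batches, and within the 1 batch that held Day1 and Week10 saline livers, Cyp7b1 rose by 4.84, Cyp27a1 by 1.80 and Baat by 1.22 on the log2 scale, beside 9.65% of all genes called.

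From Day1 to Day5, 3 genes of the set were higher in Mgmt-/- saline livers, Baat by 0.91, Slc10a1 by 0.79 and Slc27a5 by 0.64 on the log2 scale, where 5.23% of all tested genes were called. In WT saline livers limma called none of the set and 0.431% of all tested genes, and 5 of the set and 11.2% of all tested genes had an unadjusted p under 0.05. No batch held WT saline livers of both Day1 and Day5, and their batches were linked only through Month10 livers. Without batch in the model, 4 of the set and 1001 of 9050 tested genes were called. Age and batch were thus poorly separated there, and the lack of calls is not read as no change with age. From Week10 to Month10, 51% of all tested genes in Mgmt-/- and 61% in WT were called, and the median of all genes moved by 0.18 and 0.36 on the log2 scale, so the members are given as values. In Mgmt-/- Cyp7a1 stood at 0.85, Abcb11 at 0.74, Cyp7b1 at -1.27 and Nr0b2 at -1.12, and in WT Cyp7a1 stood at 1.32, Abcb11 at 1.14, Cyp27a1 at 0.94, Slc10a1 at -0.86 and Nr0b2 at -1.71, the members past the threshold. The others lay between 0.06 (Baat) and 0.48 (Cyp27a1) in Mgmt-/- and between -0.34 (Cyp8b1) and 0.45 (Slco1b2) in WT. Scaled to the same total, 5 of the set were higher and 1 lower in Mgmt-/-, and 4 and 1 in WT. Of all tested genes 46.2% were higher and 9.76% lower in Mgmt-/- under that scaling, and 51.4% and 12.1% in WT.

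**Figure D5:**
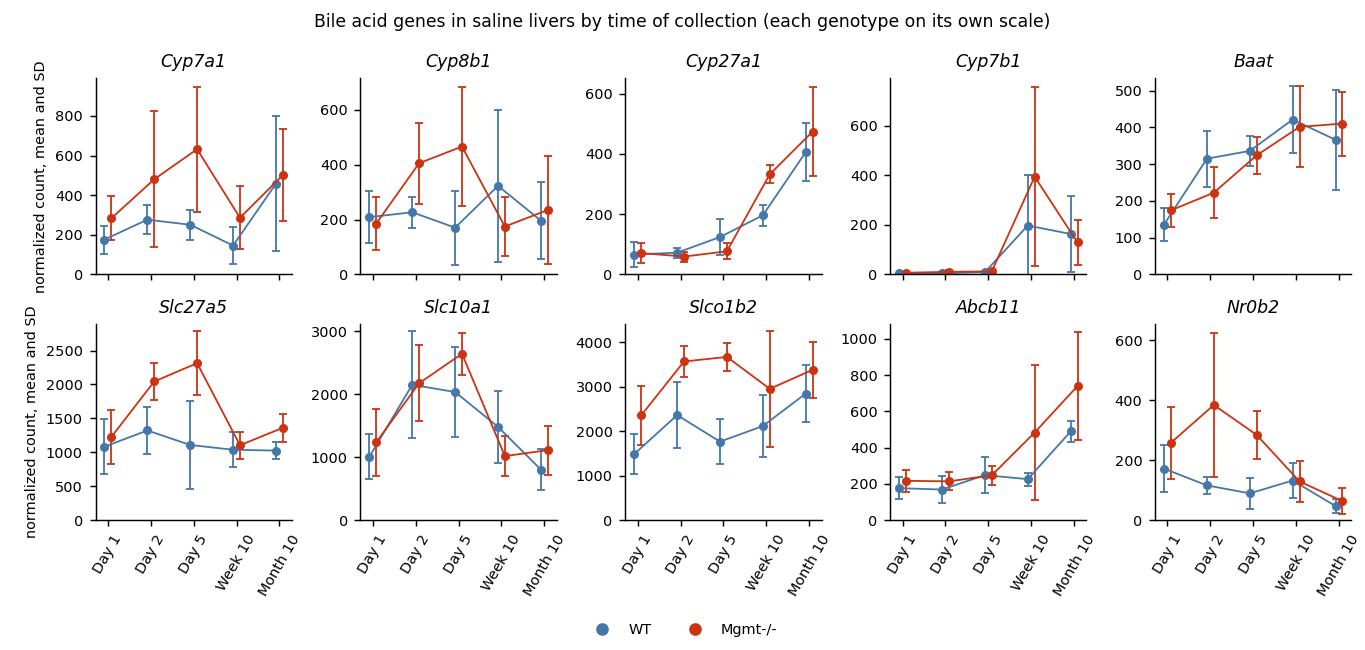
Mean normalized count with SD (vertical axis) of each gene in saline livers at the 5 collection times (horizontal axis), with each genotype on its own scale. Cyp7b1 goes from 12.4 at Day5 to 394 at Week10 in Mgmt-/- and from 9.03 to 197 in WT.

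Adult saline livers also differed by sex. In Mgmt-/- mice at Week10 and Month10 together, the female minus male log2 difference was -1.97 for Cyp8b1 and -1.95 for Cyp7b1 (adjusted p = 8.5e-05 and 1.3e-05 by limma), and 0.92 for Cyp7a1 (adjusted p = 0.041). These were 3 of the 10 genes, beside 4.2% of all tested genes. At Week10 alone, with 4 livers of each sex, limma called none of the 10 and 0.629% of all tested genes, and at Month10 alone it called 5 and 14.5%. The genes also differed in how much they varied between mice of a group. Over the saline groups the median coefficient of variation was 78.1% for Cyp7b1, 56.1% for Cyp8b1, 48.9% for Nr0b2 and 48.1% for Cyp7a1, and between 22.6% (Slc27a5) and 35.3% (Slc10a1) for the others. In WT libraries Cyp7b1 rested on a median of 8 reads, with 0 reads in 6 libraries.

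The early WT result rested on 3 batches (runs named in the table headers) at Day1. In the batches 191212Eng and 210901Eng 3 of the set were lower in each, beside 5.13% and 5.36% of all tested genes. In 200803Eng, which held the mismatched libraries, limma called no gene of the set and none of all 8965 tested (264 at an unadjusted p under 0.05), and without the doubted libraries 3 of the set and 1.11% of all tested genes were lower there. In Mgmt-/- livers at Day1, 7 of the set were lower in batch 191212Eng alone and 6 in 200803Eng alone, beside 8.03% and 2.86% of all tested genes. At WT Day2 and Day5 the batches were the sexes. In WT females alone limma called no gene at all at either time (0 of 8541 tested at Day2 and 0 of 8726 at Day5, with 954 and 453 at an unadjusted p under 0.05), so the 0 of the set there is no result about these genes. Without the saline female with high Cdkn1a at each time, 2 and 0 of the set were lower, beside 0.563% and 0% of all tested genes.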

How the data were processed

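Liver RNA from 214 labelled mice was profiled, of which 213 had values here (117 WT, 96 Mgmt-/-). The authors aligned 3′ digital gene expression reads to GRCm38 with STAR, counted genes with ESAT, and deposited counts divided by DESeq2 size factors, a normalized signal, in 1 table per genotype. Tool versions and the annotation used are not given in the sources used here. Dividing by the step worth 1 read gave whole reads in 209 of 213 libraries (100% of values whole, within 0.001 of a step). The other 4 had no recovered depth. Values resting on a few reads are the least precise.

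NDMA was compared with saline within each genotype and collection on log2(value + 1), so fold changes of low genes are understated, for genes with a mean of at least 5, by limma 3.58.1 in R 4.3.3 with trend and robust settings, sex and batch (the run in the table headers) as terms, and Benjamini-Hochberg adjustment over all tested genes. Genes were called at an adjusted p below 0.05 with a log2 fold change beyond 0.58. Saline ages and sex used the same model. Genotype by treatment used edgeR 4.0.16 on whole reads of both tables. At WT Day2, Day5 and Week10 sex and batch coincide, and the aliased term was dropped. Alternatives were other pseudocounts and filters, models without batch or sex, scaling to the same total, edgeR and DESeq2 1.42.0 on whole reads, single batches or sexes, and leaving out each mouse in turn for NDMA against saline at Day2, Day5 and Week10. Leaving out libraries that go against their labels was added after seeing the data, and rests partly on Cdkn1a, which responds to NDMA.

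Further pathway genes were named if called in 1 direction in at least 3 of the 10 NDMA comparisons, or if they had the largest called change of their list in at least 2. The authors' own comparisons were not used. Gene positions are from GENCODE vM21 (GRCm38), promoters from RefSeq (GRCm38.p6). The members and lists were chosen with earlier results of these data known. Each mouse gave 1 library. The fits were tested on simulated data in which only large changes were planted, in genes above a minimum level. That test does not speak for calls near the threshold or for genes with few reads.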

Additional observations from a re-analysis of the deposited data

Results flagged for a closer look

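A rule for a single distant value was applied to untransformed counts, in groups that shared livers across genes. Its chance rate of about 5% of groups assumes normally distributed values and need not hold here. Of 130 groups of 6 to 10 livers examined, 11 held such a value. In WT saline livers these were Cyp8b1 at Day5 (446 normalized counts, others 38.6 to 206), Cyp7a1 and Cyp7b1 at Week10 (357, others 74.0 to 174, and 634, others 18.2 to 300.2), and Baat and Cyp7a1 at Month10 (713, others 246 to 407, and 1276, others 117 to 609.9). In WT NDMA livers it was Slc27a5 at Week10 (2396, others 844 to 1208), in a library of under 300000 reads. In Mgmt-/- saline livers at Week10 the same liver, D209001, was highest for Abcb11 (1394, others 245 to 453) and Slco1b2 (6138, others 2117 to 2895). In Mgmt-/- NDMA livers they were Cyp27a1 at Day2 (48.2, others 17.0 to 31.5), Slco1b2 at Day5 (879.7, others 1539.6 to 2048) and Slco1b2 at Week10 (1858, others 969 to 1284).

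The treatment effect differed between the genotypes by edgeR's interaction term at Week10 for Cyp7b1 (-2.69), Slc10a1 (-1.24), Slco1b2 (-1.18) and Cyp27a1 (-0.85), and at Month10 for Slc10a1 (-1.18), each as the log2 change in Mgmt-/- minus that in WT. Kap, a kidney gene, was at 6147 and 7562 normalized counts in the pair of Mgmt-/- saline libraries of Day5 that were left out of the comparisons.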

How the results depend on the processing

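No paired analysis was possible because replicate numbers were unique to each mouse. Counts of the 10 genes called stayed within 1.5 times the main count in 141 of 167 other settings and in 84 of 92 fits that left out 1 mouse, run for NDMA against saline at Day2, Day5 and Week10 only. The exceptions follow; their causes were not tested. For WT at Day1 (5 lower), batch 200803Eng alone gave 0 (of all genes also 0), batches 210901Eng and 191212Eng 3 each, females alone 3, and 200803Eng without the doubted libraries 3. Of all tested genes 5.36% and 5.13% were lower in 210901Eng and 191212Eng, 2.43% in females and 1.11% in 200803Eng without the doubted libraries. For WT at Day2 (6), treatment alone gave 3, the same total 3, females alone 0 (of all genes also 0) and females without the high-Cdkn1a library 2. Of all tested genes 2% were lower with treatment alone, 2.12% with the same total and 0.563% in females without that library. For WT at Day5 (4), females gave 0 with and without that library, as of all genes 0 were lower in either fit. For Mgmt-/- at Day5 (6), the same total gave 3, females alone 3, and keeping the kidney-like libraries 0. Of all tested genes 4.5%, 3.47% and 3.14% were lower in these fits. In that last fit the log2 changes turned positive for Cyp27a1 (0.52), Slc27a5 (1.54), Slc10a1 (0.46), Slco1b2 (0.96), Abcb11 (0.90), Nr0b2 (0.63), Akr1c6 (0.93), Cyp2c70 (0.97) and Slco1a4 (1.04). For Mgmt-/-, males alone gave 2 at Week10 (6) and 1 at Month10 (3), beside 0.341% and 1.58% of all genes lower. For saline ages, WT Day5 against Day1 (0) gave 1 with a mean of at least 20, 4 with time and sex alone and 1 with the same total, beside 1.35%, 11.1% and 0.514% of all genes called. WT Week10 against Day5 (2) gave 1 with time and sex alone, beside 9.83%. Mgmt-/- Day5 against Day1 (3) gave 5 with time and sex alone and 1 with the same total, beside 16.2% and 7.93%. Mgmt-/- Week10 against Day5 (2) gave 8 with time and sex alone, beside 42.4%, against 4.98% in the main model. The female against male count (3) was 0 at Week10 and 5 at Month10, beside 0.629% and 14.5% of all genes called. Genotype by treatment at Day5 (0) gave 1, Baat, with library totals alone, beside 3.25%.

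Leaving out 1 mouse gave 3 to 6 lower genes at WT Day2, where leaving out D202002, D202003, D215001, D215002, D215003, D202008, D215007 or D215008 gave 3, 3 to 5 at WT Day5, 0 to 0 at WT Week10, and 5 to 6, 4 to 6 and 5 to 6 at Mgmt-/- Day2, Day5 and Week10. No shares of all tested genes are given for these fits. Scaling every library to the same total moved the median log2 change of all genes in Mgmt-/- livers to 0.20, 0.19, 0.17 and 0.24 at Day1, Day2, Day5 and Week10, and the share of calls that were higher from 51.2%, 62.2%, 62.4% and 65.2% to 76.2%, 80.2%, 77.8% and 86.8%. In WT that share went from 54.5% to 65.5% at Day1 and from 53.4% to 68.1% at Day2. The members' medians under that scaling were -0.90, -0.80, -0.48 and -0.54 in Mgmt-/- livers, and Baat was called higher at WT Day1 (0.58) and Mgmt-/- Day2 (0.62). In saline ages the same-total medians of all genes from Week10 to Month10 were 0.75 in WT and 0.56 in Mgmt-/-. Depth limits Cyp7b1 before Week10 most.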

Other observations

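Slco1a1, which the comparisons of the sexes did not cover in WT livers, was picked for WT males at Month10 after its values had been seen. It was at 373 to 608 normalized counts in the 4 saline males and at 41.0 to 323 in the 7 NDMA males, without overlap. Only 1 of the saline males came from batch 200803Eng. The share of all genes without overlap in groups of this size was not counted. The log2 change of Slco1a1 in males alone was -1.65 and did not pass the threshold (adjusted p = 0.234 by limma), and in females alone it was -0.08.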
